A study of Mus musculus with 12 samples.

Results

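The renin-angiotensin system was followed through 9 genes in mouse kidney: Agt, Ren1, Ace, Mme, Enpep, Agtr1a, Agtr2, Mas1 and Atp6ap2. These are the rows of the deposited expression table that carry those symbols, 9 of 45777 genes. All 12 kidney libraries came from wild-type male C57BL/6 mice of unstated age, with 3 labelled biological replicates in each of 4 groups. The normal group received neither cisplatin nor vesicles and no intravenous injection is listed for it. The 3 other groups all received intraperitoneal cisplatin, a platinum drug toxic to the renal tubule, at 9 mg/kg weekly for 5 cycles. They were then injected intravenously 5 times, 3 days apart, with phosphate-buffered saline (PBS group), 200 µg of iMSC-EVs (EV200 group) or 400 µg of iMSC-EVs (EV400 group). EVs are extracellular vesicles, small membrane particles that cells release, and iMSC is the labels' abbreviation for the cells they came from. Kidneys of the cisplatin groups were collected 3 days after the last injection.

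The system is a chain of proteolytic steps. Angiotensinogen, the product of Agt, is cut by renin to angiotensin I, which angiotensin-converting enzyme turns into the vasoconstrictor angiotensin II. Other peptidases, several of them on the brush border of the proximal tubule, shorten these peptides further, and receptors on vessels, glomeruli and tubules read them out. In the kidney, renin comes mainly from granular cells of the afferent arteriole, close to the macula densa of the thick ascending limb. These are bulk libraries, so fewer cells of a type and less RNA per cell cannot be told apart.

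Ren1 is the single structural renin gene of this strain. It lies on chromosome 1 from 133350674 to 133360320 (GRCm38, plus strand). Agt lies on chromosome 8 from 124556587 to 124569706 (minus strand). The sequences of the 250 bases before their RefSeq starts (GRCm38.p6) are shown. This pair was picked for the largest (enzyme) and smallest (substrate) absolute log2 fold change in EV400 against PBS among the 8 genes tested. Agt, at 0.077 (SE 0.108), was close to Ace, at 0.081 (SE 0.141), so the pick is not a result. The windows are chr1:133350424-133350673 (plus strand) and chr8:124569707-124569956 (minus strand), written 5′ to 3′ along each gene's own strand, with TATAAA in capitals.
Ren1: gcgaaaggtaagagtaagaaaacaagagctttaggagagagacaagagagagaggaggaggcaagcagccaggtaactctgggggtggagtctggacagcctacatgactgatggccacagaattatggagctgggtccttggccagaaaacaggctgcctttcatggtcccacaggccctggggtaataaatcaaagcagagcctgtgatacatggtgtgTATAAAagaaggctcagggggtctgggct
Agt: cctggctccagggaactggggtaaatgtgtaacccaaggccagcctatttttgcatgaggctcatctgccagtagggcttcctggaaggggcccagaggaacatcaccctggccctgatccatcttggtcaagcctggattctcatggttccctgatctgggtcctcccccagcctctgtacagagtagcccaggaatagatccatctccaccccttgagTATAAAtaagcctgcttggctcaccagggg
In both windows TATAAA, the core of the TATA box, begins 29 (Ren1) and 30 (Agt) bases before the start. The table held 11 windows for 8 of the 9 genes (not Agtr1a), with 3 for Mme and 2 for Ace. On either strand these letters occurred in 4 of the 11 windows (Ren1, Agt, Enpep and 1 of Ace) and in 12.4% of 32851 RefSeq promoter windows of the same length. The E-box CACGTG was in 0 of the 11 windows and in 6.02% of all windows. The core of the cyclic AMP response element, TGACGT, was in 1 of the 11, that of Atp6ap2, and in 6.47% of all windows. The GC box GGGCGG was in 5 of the 11 (3 of Mme, 1 of Ace and that of Atp6ap2) and in 32.7% of all windows. The searches used both strands, and the only overlapping matches were a pair of GC boxes in Ace. A match describes letters only.

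Whole-series facts bear on these genes in a few places. Total counts ran from 46598091 (PBS 1) to 62090819 (PBS 2) per library. Kidney markers were abundant in each library, with summed levels of 7271 to 13425 CPM for 6 genes of the early proximal tubule and 2507 to 4080 CPM for 3 genes of the thick ascending limb. CPM is the read count scaled to each library's size, with TMM factors applied. Adrenal cortex markers, searched for because that tissue holds angiotensin receptors, summed to 0.957 to 1.87 CPM over 6 genes, with Cyp11b2 at 0 counts in each library. Library PBS 3 held fat-cell transcripts, at 18.7 CPM for 4 adipocyte genes against at most 0.622 CPM in each other library. On the first principal component, with 55.4% of the variance, PBS 2 and EV200 3 lay at 61.5 and 39.4. The normal libraries lay at -28.7 to -24.0.

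Per transcript length, Ace stood above the other genes, and Mas1 and Agtr2 were low. TPM, the authors' deposited level scaled to transcript length and library size, was used for levels between genes. Ace, encoding angiotensin-converting enzyme (chromosome 11, 105967948 to 105989964), was highest at a median of 130 TPM over the 12 libraries (98.8 to 161). Enpep, encoding aminopeptidase A, which turns angiotensin II into angiotensin III, followed at 70.8 TPM (57.8 to 74.2). Atp6ap2, encoding the prorenin receptor, which is also an accessory protein of the proton pump, had 67.6 TPM (61.5 to 73.6). Enpep and Atp6ap2 overlapped, and neither overlapped Ace. Agt had 45.5, Ren1 38.8, Agtr1a 35.4 and Mme 33.7 TPM, and each overlapped its neighbors in this order. Only Ren1 among these 4 reached the range of Enpep and Atp6ap2, with 26.5 to 83.0 TPM. Mas1, encoding a receptor for shorter angiotensin peptides, had 3.19 TPM (2.49 to 4.48), below each library's value of the 7 genes above it.

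Agtr2, encoding the type 2 angiotensin II receptor, which is abundant in fetal rather than adult kidney, was close to absent (chromosome X, 21484624 to 21488833). The read counts were 0, 0 and 3 in the normal libraries, 0, 6 and 5 in PBS, 0, 0 and 0 in EV200 and 4, 0 and 0 in EV400. A library with 0 counts allows up to 3 counts, or 0.0492 to 0.0695 CPM over the 8 libraries at 0, for counting error only. Agtr2 did not pass the expression filter and was not tested, so 8 of the 9 genes were.

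**Figure D1:**
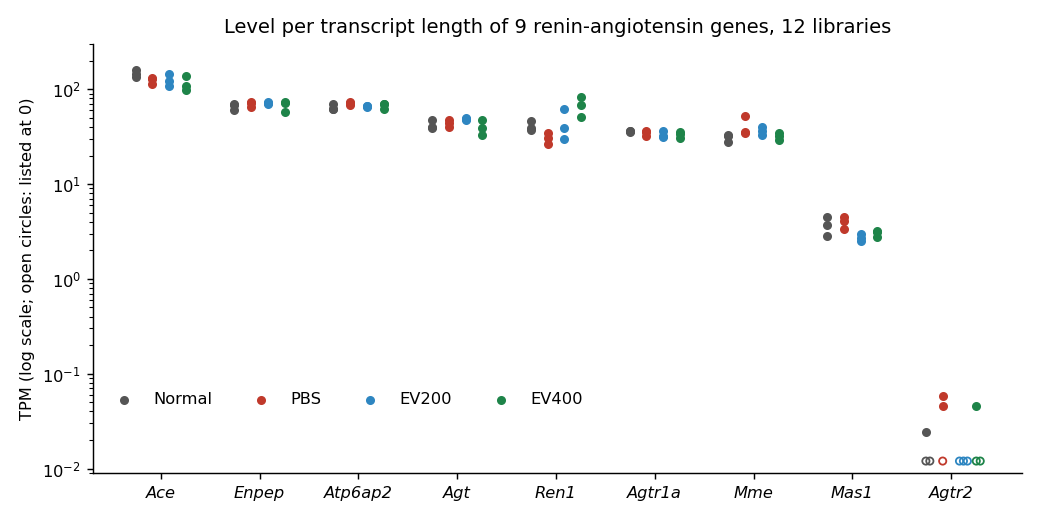
TPM on a log scale (vertical axis) of each gene (horizontal axis, ordered by median), 1 point per library, colored by group, with open circles at the bottom for libraries listed at 0. Ace leads with 98.8 to 161 TPM, Ren1 spreads most among the 8 tested genes, and Mas1 and Agtr2 sit far below.

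The comparison of EV400 with PBS asks what the higher vesicle dose changed after cisplatin. Ren1 rose, and none of the 7 other tested genes passed. Renin is the rate-limiting enzyme of the cascade. Ren1 lay at 26.0, 18.6 and 23.0 CPM in PBS and at 56.2, 65.4 and 50.6 CPM in EV400. Each EV400 library thus lay above each PBS library, and also above the normal libraries at 30.9, 39.4 and 32.2 CPM. In TPM the order was the same, with 26.5 to 34.2 in PBS, 36.8 to 45.7 in normal and 51.5 to 83.0 in EV400. The mean went from 22.5 ± 3.74 to 57.4 ± 7.48 CPM (SD, n = 3), a 2.55-fold rise (95% interval 1.85 to 3.51). On the log2 scale this is 1.35 (SE 0.21). The quasi-likelihood test of edgeR gave an adjusted p of 0.0493 (Benjamini-Hochberg over 18730 genes). That test called 0.0801% of all genes, of which the higher ones in EV400 were 0.0481% of all genes, and Ren1 ranked 13 among all genes by p.

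The size of the Ren1 difference varied little and its edgeR call was fragile. Leaving out PBS 1, PBS 2 or PBS 3 gave log2 fold changes of 1.47, 1.23 and 1.37, and edgeR adjusted p of 0.0977, 0.182 and 0.0763. Leaving out EV400 1, EV400 2 or EV400 3 gave 1.37, 1.25 and 1.44, with 0.131, 0.0736 and 0.166. The edgeR call therefore needs all 6 libraries. With all of them kept it was also lost in an edgeR fit of the 2 groups alone, at an adjusted p of 0.0728. DESeq2 also called Ren1 and was not refitted without a library. No EV400 library overlapped PBS in the full data, so the direction without 1 library was fixed beforehand.

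**Figure D2:**
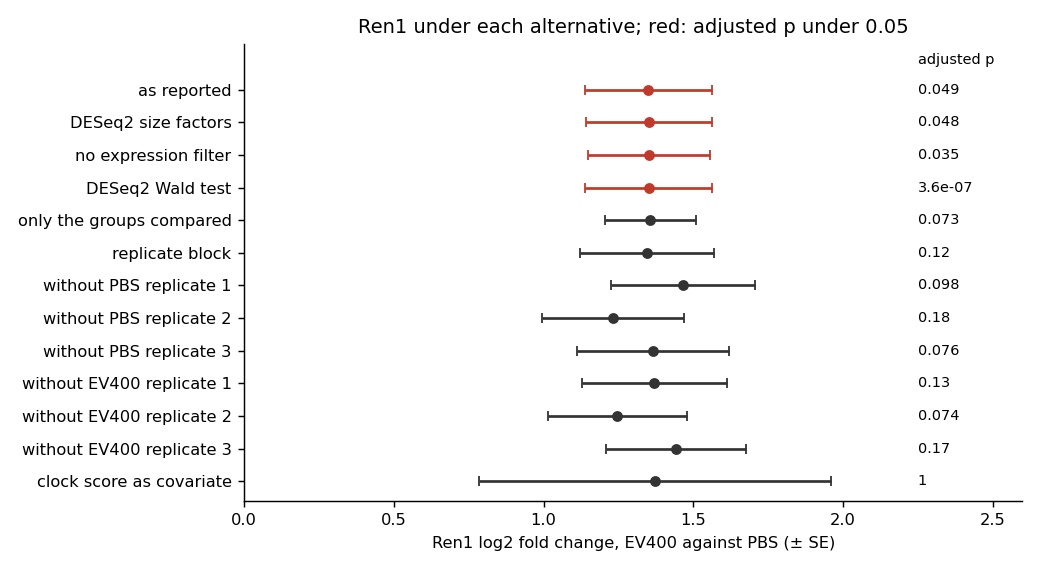
Log2 fold change of Ren1 in EV400 against PBS (horizontal axis, point ± SE) under each processing alternative (vertical axis), with the adjusted p at the right and red for values under 0.05. The points lie between 1.23 and 1.47, and 4 of the 13 fits are red.

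A clock score per library, high where Dbp is high and Arntl low, was -4.01, -3.08 and -1.16 in PBS and 1.22, 1.88 and 2.57 in EV400. It was 0.324 to 0.687 in normal and -0.0443 to 0.653 in EV200. With this score as a covariate, a fit chosen after seeing the data, Ren1 had a log2 fold change of 1.37 (SE 0.59) and an edgeR adjusted p of 1.00. PBS and EV400 did not overlap in the score, so this fit cannot separate it well from the groups. Without the score the SE was 0.21, and with it no gene at all was called in EV400 against PBS. The labels give no hour of collection, so a different hour cannot be told apart from the groups. Summed levels of 6 genes of smooth muscle, mesangium and pericytes, neighbors of the renin cell, were 138 to 257 CPM in PBS, 123 to 163 in EV400 and 124 to 135 in normal. edgeR called none of these 6 in any comparison. DESeq2 called 3 (Acta2, Rgs5 and Tagln) higher in PBS than normal, where it called 15.1% of all genes. Summed levels of 5 macrophage genes were 244 to 468 CPM in PBS, 97.1 to 209 in EV400 and 104 to 117 in normal, so PBS and EV400 did not overlap. Those of 4 fibroblast genes were 78.4 to 248 CPM in PBS, 39.2 to 87.8 in EV400 and 54.9 to 56.0 in normal. In EV400 against PBS edgeR called 0 of these 5 and 0 of these 4 (0.0801% of all genes). An unadjusted p under 0.05 was reached by 2 and 4 (23.5% of all genes). DESeq2 called 0 and 1 (Lum, lower), and 6.23% of the 15088 genes it gave an adjusted p. In EV200 the sums were 126 to 217 CPM (smooth muscle list), 144 to 422 (macrophage) and 53.4 to 142 (fibroblast), each highest in EV200 3. EV200 3 also had the highest Ren1 of its group, at 46.1 CPM. The part of these cell types in the Ren1 result was not tested.

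Ren1 overlapped at the lower dose. The EV200 libraries had 23.8, 31.7 and 46.1 CPM, from within the PBS range to above the normal range. The mean of 33.8 ± 11.3 CPM (SD, n = 3) gave a log2 fold change against PBS of 0.59 (SE 0.21), with an edgeR adjusted p of 0.657. DESeq2 gave an adjusted p of 0.359. The log2 fold change was 0.30 without EV200 3. EV400 against EV200 gave 0.76 (95% interval 0.31 to 1.22), with an edgeR adjusted p of 0.769. Without EV200 3 this log2 fold change was 1.05. These libraries did not overlap in CPM, but they did in TPM, where EV200 3 had 62.5 and EV400 3 had 51.5. A difference between the doses was therefore not established by the test.

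In PBS against normal, Ren1 pointed the other way. Each PBS library lay below each normal library, with means of 22.5 and 34.2 ± 4.54 CPM (SD, n = 3). The log2 fold change was -0.60 (SE 0.21), with an edgeR adjusted p of 0.0933. DESeq2 gave an adjusted p of 0.0421 and an edgeR fit of these 2 groups alone 0.0484, so the call depends on the fit. EV200 against normal gave -0.01 (95% interval -0.47 to 0.44), and EV400 against normal gave 0.75 (95% interval 0.29 to 1.20), with edgeR adjusted p of 0.985 and 0.655. PBS libraries enter both the comparison with normal and those with the doses, so these values are not independent.

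**Figure D3:**
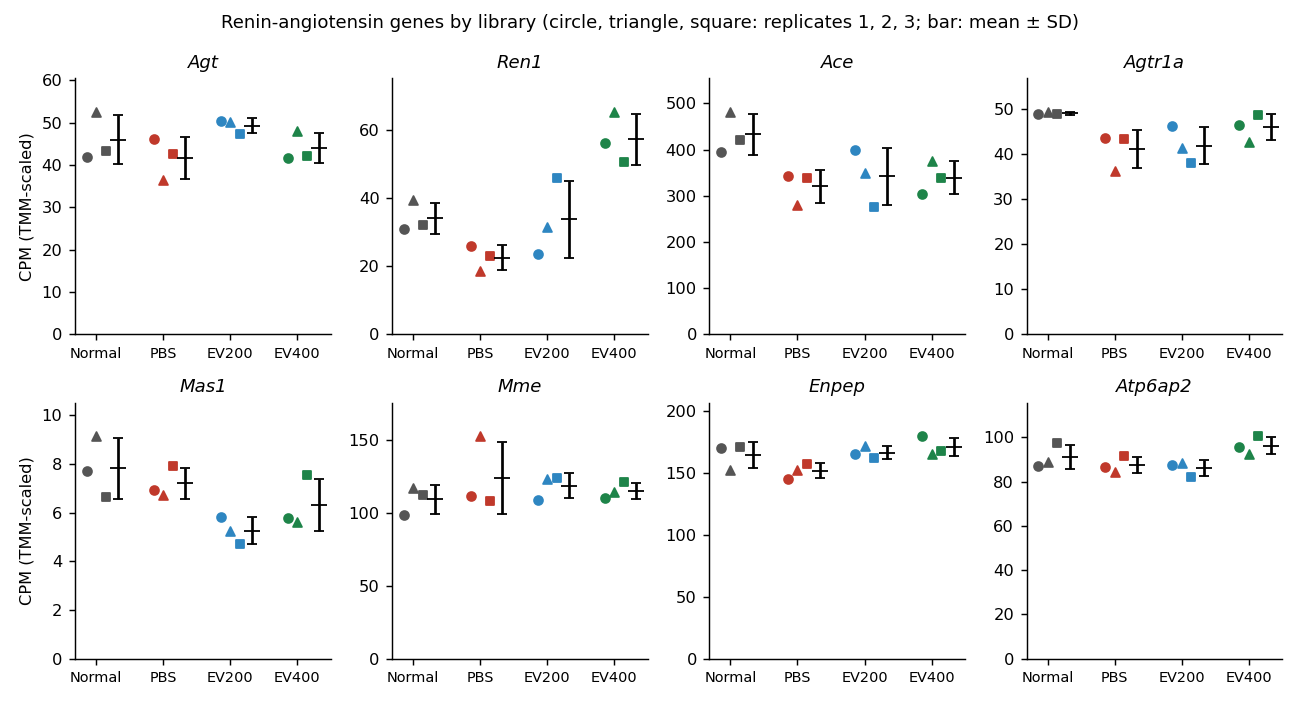
CPM (vertical axis, from 0) of the 8 tested genes in each library, by group (horizontal axis), with the mean ± SD of 3 libraries beside the points. Only Ren1 shows EV400 libraries, at 50.6 to 65.4 CPM, above all libraries of each other group.

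Agt, the substrate, overlapped between normal, PBS and EV400. Normal libraries had 42.0, 52.6 and 43.2 CPM, PBS 46.1, 36.4 and 42.6, EV200 50.3, 50.2 and 47.2, and EV400 41.7, 48.0 and 42.0. EV200 lay above PBS in each library, with a log2 fold change of 0.24 (SE 0.11) and an edgeR adjusted p of 0.657. EV400 against PBS gave 0.08 (95% interval -0.16 to 0.31). Within each library, the TPM of Ren1 relative to Agt was 0.952 to 0.968 in normal, 0.660 to 0.730 in PBS, 0.610 to 1.26 in EV200 and 1.55 to 1.76 in EV400. This ratio involves no scaling between libraries, and normal, PBS and EV400 did not overlap in it.

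Ace was lower in PBS than in normal by an amount that missed the threshold. Normal libraries had 396, 482 and 421 CPM and PBS libraries 343, 280 and 340 CPM. The groups did not overlap, and the log2 fold change was -0.43 (SE 0.14) with an edgeR adjusted p of 0.0816 (0.0302 by DESeq2). EV200 had 399, 350 and 276 CPM and EV400 305, 375 and 338 CPM, with -0.34 (SE 0.14) and -0.35 (SE 0.14) against normal and edgeR adjusted p of 0.336 and 0.672. EV200 1, at 399 CPM, overlapped normal, and EV400 did not in CPM. In TPM EV400, at 98.8 to 137, did overlap normal at 135 to 161. Against PBS the doses gave 0.09 (95% interval -0.21 to 0.40) and 0.08 (95% interval -0.23 to 0.39). The means of the 3 cisplatin groups were 321 to 342 CPM and the normal mean was 433 CPM. In mouse kidney Ace is made by the proximal tubule brush border and by endothelium. Marker sums follow in the order PBS, EV200, EV400 and normal. Those of the early proximal tubule were 7271 to 10691, 8301 to 12650, 10649 to 11727 and 13128 to 13425 CPM. Those of 5 late proximal tubule genes were 1336 to 1602, 1343 to 1695, 1571 to 2034 and 1960 to 2116 CPM. Those of 6 endothelial genes were 250 to 308, 279 to 312, 262 to 301 and 291 to 306 CPM. The part of these cell types in the Ace values was not tested. A non-coding gene, Gm11651, overlaps Ace exons by 295 bases on the other strand, and reads of both cannot be told apart where counting ignores strand.

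Agtr1a encodes the main type of angiotensin II receptor in mouse kidney (chromosome 13, 30336356 to 30382867). It was nearly equal in the normal libraries, at 48.8, 49.3 and 48.7 CPM, and lay at 43.6, 36.2 and 43.3 CPM in PBS. These groups did not overlap in CPM, with a log2 fold change of -0.26 (SE 0.09) and an edgeR adjusted p of 0.105. In TPM they did overlap, at 35.7 to 36.6 in normal and 32.1 to 36.1 in PBS. EV200 had 46.2, 41.3 and 38.0 CPM and EV400 46.5, 42.7 and 48.6 CPM. EV400 lay below normal in CPM by little, with 48.64 in EV400 3 and 48.72 in normal 3. In TPM EV400, at 30.7 to 35.3, also lay below normal. The log2 fold change of EV400 against normal was -0.09 (95% interval -0.30 to 0.11). Against PBS the doses gave 0.03 (95% interval -0.18 to 0.23) and 0.16 (95% interval -0.04 to 0.37), so the data allow changes of up to 1.29-fold at the higher dose.

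Mas1 (chromosome 17, 12838841 to 12868150) was lowest at the 200 µg dose. EV200 libraries had 5.82, 5.25 and 4.71 CPM, below PBS at 6.94, 6.73 and 7.92 and below normal at 7.69, 9.13 and 6.62. EV400 had 5.76, 5.62 and 7.56 CPM and overlapped each other group. In TPM, EV200 (2.49 to 2.95) again lay below PBS (3.36 to 4.48) and overlapped normal (2.86 to 4.46). EV200 against PBS gave a log2 fold change of -0.45 (SE 0.16, edgeR adjusted p 0.657), and EV200 against normal -0.57 (SE 0.16, edgeR adjusted p 0.178). DESeq2 called the latter, with an adjusted p of 0.0480. The PBS and normal libraries overlapped, at -0.12 (95% interval -0.46 to 0.22).

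The peptidase genes Mme and Enpep, neighbors in function on the proximal tubule brush border, differed less between normal and PBS than Ace did, without a test of that difference. Mme (chromosome 3, 63295211 to 63383713) encodes neprilysin, which cleaves angiotensin I and natriuretic peptides. It lay at 98.5, 117 and 112 CPM in normal and at 112, 153 and 108 CPM in PBS, where PBS 2 stood above the other 11 libraries. Log2 fold changes were 0.18 (95% interval -0.09 to 0.46) for PBS against normal, -0.06 (95% interval -0.34 to 0.21) for EV200 against PBS and -0.11 (95% interval -0.38 to 0.16) for EV400 against PBS. Without PBS 2 these 3 values were 0.019, 0.12 and 0.07. Enpep (chromosome 3, 129269177 to 129332749) had 145, 153 and 157 CPM in PBS, 165, 172 and 162 in EV200 and 180, 166 and 168 in EV400. Both doses lay above PBS in each library, by 0.13 (SE 0.07) and 0.17 (SE 0.07), with edgeR adjusted p of 0.657 and 0.198. In TPM both doses overlapped PBS. Normal, at 170, 152 and 171 CPM, overlapped PBS.

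Atp6ap2 (chromosome X, 12587759 to 12617051) varied least across the 12 libraries, from 81.8 to 100.5 CPM. EV400 libraries, at 95.7, 92.5 and 100.5 CPM, lay above PBS at 86.8, 84.4 and 91.4 and above EV200 at 87.6, 88.5 and 81.8. The log2 fold changes were 0.14 (SE 0.07) and 0.16 (SE 0.07), with edgeR adjusted p of 0.253 and 0.769. Normal, at 87.2, 88.9 and 97.2 CPM, overlapped each group. The direction rests on the scale, since in TPM EV400 had 61.5 to 70.6 and PBS 68.5 to 73.6.

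**Figure D4:**
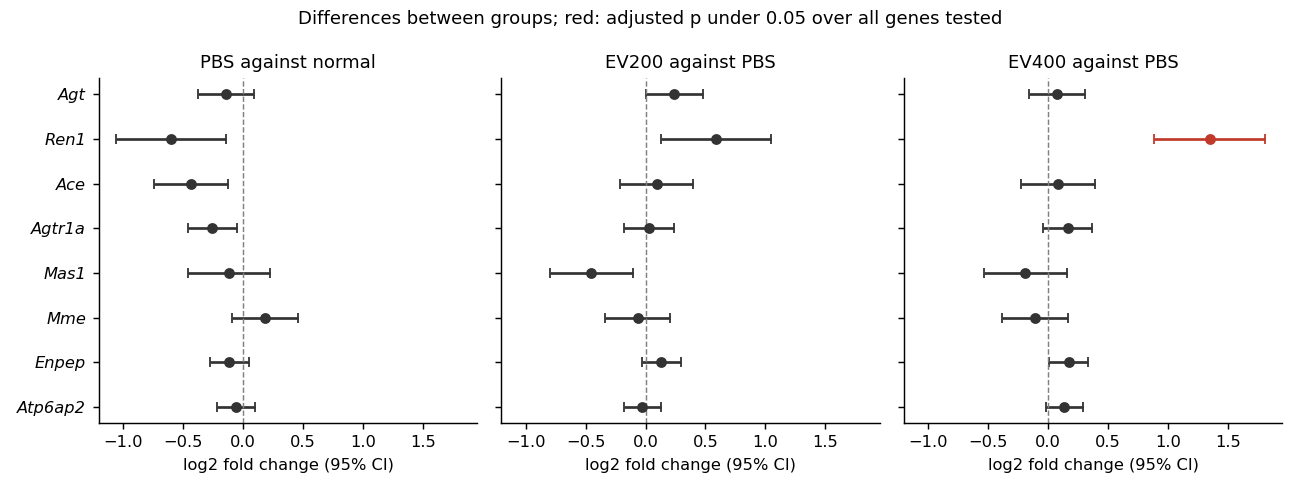
Log2 fold change with its 95% interval (horizontal axis) of the 8 tested genes (vertical axis) in PBS against normal, EV200 against PBS and EV400 against PBS. Ren1 at 1.35 in EV400 against PBS is the only red point, an adjusted p under 0.05.

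Counted over the 6 comparisons, edgeR called a member only in EV400 against PBS. In PBS against normal it called 0 of the 8 members (2.74% of all genes), and DESeq2 called 2, Ren1 and Ace (15.1% of the 18718 genes it tested). An unadjusted p under 0.05 was reached by 3 members (29.8% of all genes). Libraries lay wholly below normal for 3 members (20.0% of all genes) and wholly above it for 0 (20.3%). The median log2 fold change was -0.13 over the members and 0.0022 over all genes tested. In EV200 against PBS, edgeR called 0 members (0.0160% of all genes) and DESeq2 called 0 (0.266% of the 16902 genes it gave an adjusted p). An unadjusted p under 0.05 was reached by 3 (6.90% of all genes), 2 lay wholly above PBS (5.53%) and 1 wholly below (4.94%). The median was 0.06 over the members and -0.0025 over all genes. In EV400 against PBS, DESeq2 also called Ren1 alone (6.23% of the 15088 genes it gave an adjusted p). An unadjusted p under 0.05 was reached by 2 members (23.5% of all genes), 3 lay wholly above PBS (12.2%) and 0 wholly below (13.8%). The median was 0.11 over the members and -0.025 over all genes.

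The 3 remaining comparisons held no edgeR call among the members. In EV400 against EV200, 0 of 8 were called (0.00534% of all genes), also by DESeq2 (0.0748% of the 18718 genes it gave an adjusted p). An unadjusted p under 0.05 was reached by 2 (6.34% of all genes). EV400 lay wholly above EV200 for 2 members (5.10%) and wholly below for 0 (5.57%). In EV200 against normal, edgeR called 0 of 8 (0.0694% of all genes). DESeq2 called 1, Mas1 (2.69% of the 18354 genes it gave an adjusted p). An unadjusted p under 0.05 was reached by 3 (13.2% of all genes). EV200 lay wholly below normal for Agtr1a and Mas1 (12.9%) and wholly above for 0 members (11.9%). In EV400 against normal, 0 of 8 were called by edgeR (0.00% of all genes) and by DESeq2 (0.187%), and 2 had an unadjusted p under 0.05 (6.98%). In CPM, EV400 lay wholly above normal for Ren1 (8.28%) and wholly below for Ace and Agtr1a (10.6%). For Agtr1a this rested on 48.64 CPM in EV400 3 and 48.72 CPM in normal 3.

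The members can be set beside 4 lists of related genes. Of 17 other genes of the angiotensin pathway, 12 were tested, and the other 5 (Agtr1b, Ctsg, Cma1, Cpa3 and Mrgprd) did not pass the filter. The mast cell protease gene Cma1 and the cathepsin G gene Ctsg had at most 22 and 0 counts in a library. In PBS against normal edgeR called 0 of the 12, DESeq2 called 1 (15.1% of all genes), 5 had an unadjusted p under 0.05 (29.8% of all genes), and the median log2 fold change was -0.20. All 12 values were negative. Among those with the smallest p were Rnls, encoding renalase, at -0.59 (SE 0.19), and the carboxypeptidase gene Ctsa at -0.28 (SE 0.10), with edgeR adjusted p of 0.0798 and 0.112.

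Of 14 genes of renin cells and the macula densa, edgeR called 1 higher in PBS than normal (1.84% of all genes were called higher), and DESeq2 called 4 (15.1% of all genes). Pappa2, a protease gene of macula densa and thick ascending limb cells, rose from 0.809 ± 0.249 to 3.95 ± 1.64 CPM (SD, n = 3). Its log2 fold change was 2.29 (SE 0.49), with an edgeR adjusted p of 0.0436. No gene at all was called without normal 1, normal 2 or normal 3, so that call rests on each of them. The prostaglandin receptor gene Ptger4 had 1.48 (SE 0.38) and Gja5, encoding the connexin of renin cells and endothelium, 0.77 (SE 0.24), with edgeR adjusted p of 0.0543 and 0.0746. In EV400 against PBS edgeR and DESeq2 each called 0 of the 14, 4 had an unadjusted p under 0.05 (23.5% of all genes), 7 values were positive and 7 negative, and the median was -0.0038. Pappa2 had -1.25 there and Gja5 0.06. In CPM 1 of the 14 lay wholly above PBS (12.2% of all genes) and 0 wholly below (13.8%). That gene, Akr1b7, is named here after the values were known. It had 2.51 to 3.09 CPM in EV400, 1.39 to 2.05 in PBS, 1.41 to 2.49 in EV200 and 1.09 to 1.59 in normal. In TPM its EV400 range, 3.02 to 4.27, overlapped PBS at 2.05 to 3.31.

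Of 13 genes of receptor signalling and the aldosterone arm, 12 were tested (Bdkrb1 was not). In PBS against normal edgeR called 0, with 5 at an unadjusted p under 0.05 (29.8% of all genes) and 3 by DESeq2 (15.1%), and the median was 0.22. Rgs2, encoding a brake on angiotensin receptor signalling, had 0.60 (SE 0.19), the arrestin gene Arrb2 0.62 (SE 0.21) and Arap1 0.40 (SE 0.13), with edgeR adjusted p of 0.0762, 0.0830 and 0.0880. The 8 other peptidases and hydrolases of the brush border, a list that shares members with the pathway list, were all tested. In PBS against normal edgeR called 0, with 7 at an unadjusted p under 0.05 (29.8% of all genes) and 4 by DESeq2 (15.1%), and the median was -0.36. The trehalase gene Treh had -0.43 (SE 0.12) and the meprin genes Mep1b and Mep1a -0.50 (SE 0.15) and -0.37 (SE 0.13), with edgeR adjusted p of 0.0630, 0.0694 and 0.0905. Dpp4, at 0.22, was the only positive value of the 8, chosen here after the values were known. Beside this list, Ace had -0.43, Enpep -0.12 and Mme 0.18.

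The genes most like each member across the 12 libraries, by Pearson correlation of log2 CPM among 13053 genes, were as follows. These points share their groups, so the values are descriptions. Ren1 was most like Tspan4 (0.90), Jade2 (0.88) and Tgm1 (0.86). Agt was most like Shisa7 (0.96), Lenep (0.92) and Ints11 (0.90), and Ace like Stk35, Atp11a and Adcy9 (0.95 each). Agtr1a was most like the phosphate transporter gene Slc20a2 (0.97), Snx9 (0.96) and Abhd3 (0.96). Mme was most like Zfp40 (0.93), Wdr76 (0.91) and Ccdc127 (0.90). Enpep had the weakest matches, G0s2 (0.84), AA388235 (0.82) and Polr2h (0.81). Mas1 was most like Ralgps1 (0.92), Heatr3 (0.85) and P2rx3 (0.85), and Atp6ap2 like Ube2u (0.92), Ddx59 (0.92) and Isoc1 (0.88). Among the 8 members themselves, the highest correlation was between Ace and Agtr1a (0.76) and the lowest between Agtr1a and Mme (-0.72). Ren1 had 0.26 with Agt and 0.02 with Ace.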

How the data were processed

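Polyadenylated RNA from 12 kidney samples was sequenced as paired reads of 101 bases from a strand-marking kit, per the labels' protocols. Reads were handled with HISAT2 2.1.0, StringTie 2.1.3b, Trimmomatic 0.38 and FastQC 0.11.7 and build mm10 (GRCm38), per the submitters' processing notes. Which program counted reads, and whether by strand, is not stated. The authors deposited whole-number read counts per gene, which were tested as they stand, and TPM values, used for levels between genes. The 12 deposited FPKM columns were not used. Total counts ran from 46598091 to 62090819 per library. Of 45777 gene identifiers, 45679 matched RefSeq GRCm38.p6, including all 9 members, and exon overlaps came from GENCODE vM21.

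Counts of all 12 libraries entered 1 quasi-likelihood fit in edgeR 4.0.16 (R 4.3.3, limma 3.58.1) with TMM factors, the default expression filter and 8 residual degrees of freedom. It left 18730 genes in 6 comparisons, called at a Benjamini-Hochberg adjusted p under 0.05. SE is the absolute log2 fold change over the square root of F, and 95% intervals use the total degrees of freedom. Alternatives were DESeq2 factors, no filter, DESeq2 1.42.0, the compared groups alone, the replicate number as a block, omission of each library and, added after seeing the data, a clock covariate. That score takes log2 CPM (0.5 added), standardized per gene, and subtracts the average of Clock, Npas2 and Arntl from the average of Ciart, Per3, Per2, Tef and Dbp. The members and lists were chosen with earlier results of these data known.

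Named genes were all members, list genes called in any comparison, the 3 of each list with the smallest p in PBS against normal, and the 3 genes most like each tested member (mean of at least 1 CPM, no provisional symbol). One gene that this rule names is not reported here. The labels do not say that replicates came from separate mice, so p-values measure the spread between these samples only. Within groups, libraries differed by more than sampling noise.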

Additional observations from a re-analysis of the deposited data

How the results depend on the processing

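Of 576 recomputed log2 fold changes of the members, 539 kept their direction and side of the threshold, 24 reversed, 4 passed the threshold and 9 lost it. The reversals fell in 14 of 48 results, none with a reported log2 fold change above 0.14 in size. Ren1 in EV400 against PBS kept a log2 fold change of 1.23 to 1.47. Its edgeR call was lost in each fit without 1 library, in the fit of those groups alone (adjusted p = 0.0728) and with the clock covariate. The number of members called there fell from 1 to 0 in these fits (0 to 0 without 1 library). In PBS against normal, DESeq2 called 2 members and the fit of these groups alone 1. DESeq2 called 1 member in EV200 against normal.

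The genes called in PBS against normal numbered 514 as reported, 299 without a filter, 2835 by DESeq2, 1449 with the compared groups alone, 0 with the clock covariate and 0 to 2277 without 1 library. For EV200 against PBS, 3 became 45 by DESeq2, 0 with the groups alone, 0 with the covariate and 1 to 6 without 1 library. For EV400 against PBS, 15 became 940, 2, 0 and 0 to 26 in the same order. For EV400 against EV200, 1 became 14 by DESeq2 and 0 with the groups alone or the covariate. For EV200 against normal, 13 became 494, 28, 6 and 2 to 58. For EV400 against normal, 0 became 35 by DESeq2. The cause was not tested.

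Replicate numbers did not pair the libraries: same-numbered deviations correlated at -0.47 to 0.49. With the replicate block, genes called were 0 in PBS against normal, 0 in EV200 against PBS, 0 in EV400 against EV200 and 6 in EV200 against normal. Under this block 0 members were called in EV400 against PBS, where Ren1 had 1.35 (adjusted p = 0.118).

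Log2 fold changes that changed sign without 1 library ranged, in PBS against normal, from -0.22 to 0.014 for Mas1. In EV200 against PBS they ranged from -0.030 to 0.23 for Ace, -0.051 to 0.094 for Agtr1a, -0.15 to 0.12 for Mme and -0.047 to 0.0095 for Atp6ap2. In EV400 against PBS they ranged from -0.0093 to 0.16 for Agt, -0.0064 to 0.16 for Ace and -0.20 to 0.071 for Mme. Ranges were -0.14 to 0.12 for Ace in EV400 against EV200, -0.30 to 0.20 for Ren1 and -0.023 to 0.060 for Enpep in EV200 against normal, and -0.13 to 0.060 for Agt in EV400 against normal. Ren1 in EV200 against normal was 0.0078 without a filter and 0.0038 with the groups alone. The clock covariate gave 0.21 for Mas1 and 0.058 for Atp6ap2 in PBS against normal, and -0.016 for Ace and -0.027 for Atp6ap2 in EV400 against PBS. Depth limits Agtr2 alone among the members.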
